A study of Homo sapiens with 37 samples.

Results

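The genes described here encode the subunits of the 5 enzyme complexes of oxidative phosphorylation, in K562 cells with and without ZBTB7A. K562 is an established human leukaemia cell line with erythroid features, and ZBTB7A is a zinc finger transcription factor. Members were chosen by gene symbol: the NDUFA, NDUFB, NDUFC, NDUFS and NDUFV families (without the NDUFAF assembly factors), SDHA to SDHD, UQCR, COX4 to COX8, ATP5, and the mitochondrially encoded MT-ND, MT-CO, MT-CYB and MT-ATP genes. The rule gave 103 protein-coding symbols, of which 89 had a row among the 32055 genes of the table and 85 passed the filter on low counts, within 10661 genes tested. The other 14 symbols, among them MT-ND4, MT-CO3, NDUFB8 and ATP5PO, are not analysed here. NDUFA4L2 (15 UMIs over all libraries), COX6B2 (21), COX7A1 (6) and COX7B2 (27) had a row but were not tested. COX6B2 and COX7B2 are testis forms, COX7A1 is a muscle form and NDUFA4L2 is a hypoxia-induced paralog of NDUFA4.

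The study compared 26 libraries labelled KO with 11 labelled control, all from K562. According to its methods, cells were electroporated with a plasmid carrying Cas9 and a gRNA against ZBTB7A, or with the empty vector, and single cells were sorted and grown into clones. The libraries are bulk 3' RNA-seq (SCRB-seq), in which unique molecular identifiers (UMIs) count molecules. The labels give a genotype and a well barcode but no clone, gRNA or replicate number, so libraries are called KO 1 to KO 26 and control 1 to control 11. Nothing says that each library came from a separate clone, and the p-values measure only the spread between libraries.

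Library totals were 1070250 to 4270901 UMIs in KO (median 2030965) and 563235 to 4710809 in control (median 3518944). By the median the KO libraries were thus shallower than the controls. Of the KO libraries 12 carried a GC-rich barcode (at least 4 of 6 bases) and 12 an AT-rich one (at most 2), against 1 and 8 of the controls. ZBTB7A itself was counted at 62 to 314 UMIs in KO and 21 to 296 in control, and did not pass the test described below (adjusted p = 0.331 by edgeR, log2 fold change 0.12). Counts of 3' reads do not check an edit elsewhere in the gene, so they neither bear out nor contradict the labels. Of 14 erythroid markers tested, 3 were lower and 3 higher in KO, and their summed CPM ran from 3247 to 10170 in KO and from 4476 to 9416 in control. The megakaryocyte markers PF4, PPBP and ITGB3 were at or near 0 (at most 5 UMIs in any library), and ITGA2B reached 41 UMIs in KO and 19 in control. GP1BA was higher in KO, with a log2 fold change of 3.35, and the list summed to 2.69 to 60.3 CPM in KO and 0.767 to 8.24 in control. Myeloid markers summed to 46.3 to 102.5 CPM in KO and 83.7 to 117.2 in control, and lymphoid markers to 1.40 to 30.3 and 16.5 to 74.7. CD33 and CD3D were lower in KO, with log2 fold changes of -0.66 and -1.85, and the myeloid marker ITGAM was higher (1.23, adjusted p = 0.00248 by edgeR). The part of these differences in the results below was not tested.

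Oxidative phosphorylation takes place in the inner mitochondrial membrane. Complex I oxidises NADH and complex II oxidises succinate, and both pass electrons to coenzyme Q. Complex III hands them on to cytochrome c and complex IV to oxygen. The proton gradient built up on the way drives ATP synthase. Most subunits are encoded in the nucleus and imported, while a small set of hydrophobic core subunits is transcribed and translated inside the mitochondrion.

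Nuclear-encoded subunits were lower in the KO libraries across all 5 complexes. Of 74 nuclear members tested, 41 were lower at an adjusted p below 0.05 (edgeR quasi-likelihood test, Benjamini-Hochberg over all genes tested), none was higher and 33 did not pass. Their median log2 fold change was -0.15, or 0.901-fold, and 70 of the 74 had a negative value. The differences were small for single genes. Over all 85 members 45 were lower (52.9%), 2 were higher, both mitochondrially encoded, and 38 did not pass. Of all genes tested, 16.2% passed as lower and 17.7% as higher, and the median log2 fold change was -0.0046. Among genes averaging 100 CPM (counts scaled to the normalised library size) or more, 24.8% passed as lower and 14.7% as higher, and 44 of the 80 members at that level were lower.

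When the fit was restricted to AT-rich barcodes, which left 12 KO and 8 control libraries, 21 members were lower, 19 of them nuclear, all 21 being among the 45, while 12.1% of all genes passed as lower. The median log2 fold change of the nuclear members was then -0.10. The median deviation of the nuclear members from the control mean was -0.096 log2 CPM over the AT-rich KO libraries and -0.199 over the GC-rich ones. With 1 GC-rich control, barcode composition and genotype cannot be told apart among the GC-rich libraries.

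**Figure D1:**
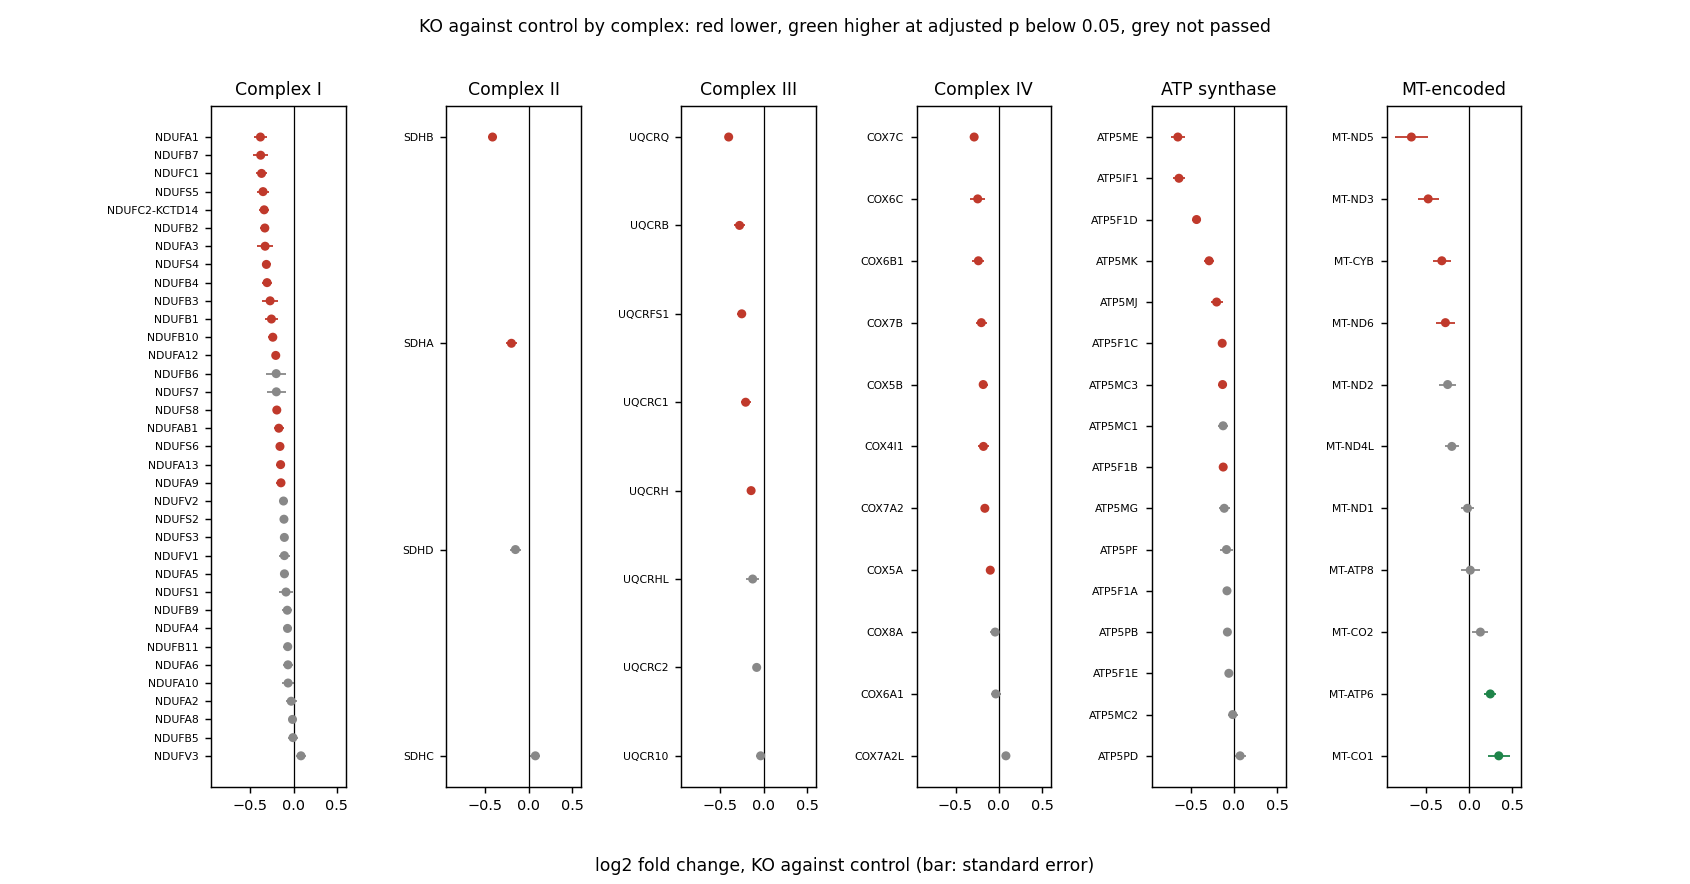
Log2 fold change, KO against control, of the 85 tested members (horizontal axis, with its standard error) in panels by complex, the mitochondrially encoded members in a panel of their own. Of the 74 nuclear members 41 are lower (red) and none is higher, while 4 of the 11 mitochondrially encoded members are lower and 2 are higher (green).

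Only 3 members, ATP5ME, ATP5IF1 and MT-ND5, also changed by more than 0.5 on the log2 scale (both thresholds), all of them lower. Of all genes tested 10.2% passed both thresholds in either direction and 3.53% as lower. The KO libraries nevertheless lay largely outside the control range for several members. For 8 members, all nuclear, at least 20 of the 26 KO libraries lay below the lowest control, as for 2.65% of all genes. For UQCRQ all 26 did, which held for 12 of the 10661 genes, or 0.113%.

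All nuclear members together summed to 34193 ± 2689 CPM in KO (SD, n = 26) and 38976 ± 2068 in control (n = 11), a ratio of 0.877, and 18 KO libraries lay below the lowest control. For complex I the sums were 11833 ± 954 and 13587 ± 731 CPM, with 18 KO libraries below the lowest control. Complex II summed to 585.9 ± 47.4 and 699.3 ± 34.0 CPM (23 below), and complex III to 5099 ± 375 and 5881 ± 272 CPM (22 below). Complex IV summed to 7345 ± 666 and 8193 ± 611 CPM, where the groups overlapped more and 11 KO libraries lay below the lowest control. ATP synthase summed to 9331 ± 765 and 10616 ± 592 CPM (14 below). KO 8 was the lowest library for each of these sums, and KO 1 was the highest KO library for all but complex II. These are shares of each library's counts, and in bulk samples fewer cells of a type and less RNA per cell cannot be told apart.

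**Figure D2:**
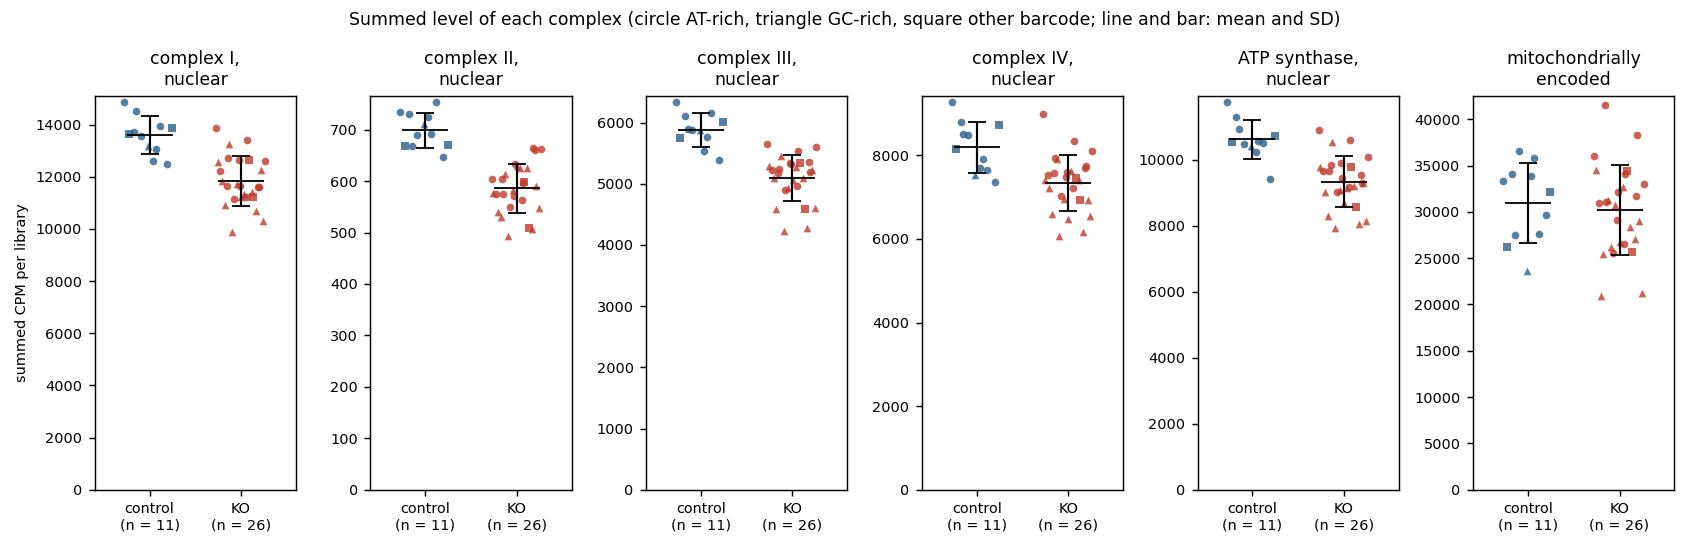
Summed CPM of the subunits of each complex per library (vertical axis, CPM, from 0), with a point per library, its shape giving the barcode class, and the mean and SD per group. The nuclear sums of the KO libraries lie lower, with 23 of 26 below the lowest control for complex II and 11 for complex IV, while the mitochondrially encoded sums overlap.

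To show what lies in front of genes that were lower, the bases upstream of 4 of them are given, taken from RefSeq (GRCh38.p14). These are the 4 nuclear members with the largest falls among those that met 2 conditions. The RefSeq promoter window held all 150 bases before their GENCODE 44 start, and no exon of GENCODE 44 lay in those bases. Members with larger falls that did not meet both were passed over. Capitals mark a match to CCGGAAG, the core recognised by ETS factors such as GABP, which are known to bind many genes of the respiratory chain.
ATP5IF1, chr1:28235959-28236108, plus strand: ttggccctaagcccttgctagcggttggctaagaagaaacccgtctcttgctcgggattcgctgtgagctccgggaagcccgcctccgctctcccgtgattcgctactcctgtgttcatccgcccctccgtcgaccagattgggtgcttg
SDHB, chr1:17054033-17054182, minus strand: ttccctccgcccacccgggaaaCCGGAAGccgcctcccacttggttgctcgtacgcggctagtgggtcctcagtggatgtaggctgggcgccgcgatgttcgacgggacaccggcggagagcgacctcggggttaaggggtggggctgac
NDUFB7, chr19:14572067-14572216, minus strand: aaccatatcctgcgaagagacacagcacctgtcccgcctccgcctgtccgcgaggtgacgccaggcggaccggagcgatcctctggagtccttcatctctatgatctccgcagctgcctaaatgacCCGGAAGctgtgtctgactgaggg
NDUFC1, chr4:139302552-139302701, minus strand: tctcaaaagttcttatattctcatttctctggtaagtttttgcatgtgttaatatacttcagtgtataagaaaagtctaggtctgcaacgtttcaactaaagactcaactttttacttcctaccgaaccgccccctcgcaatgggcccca

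A promoter window of 300 bases (250 before and 50 after the start) was found for 62 of the 74 nuclear members tested, 35 of them lower and 27 not passed, and was searched on both strands. CCGGAAG was present in 11 of the 35 windows of lower members (31.4%) and in 8 of the 27 others (29.6%), against 21.8% of the windows of all genes tested and 10.7% of all promoters. GCATGCGC, a core of the NRF1 site, was present in 17.1% and 25.9% of the same member windows and in 6.01% of those of all genes tested and 3.27% of all promoters. AAGATGGC, a core of the YY1 site, was present in 14.3% and 14.8%, against 6.24% and 3.03%. CCCTTCCC, a stretch like that bound by ZBTB7A in front of the fetal globin genes, was present in 0 of the 62 member windows, against 7.93% and 6.48%. CCGGAAG and AAGATGGC can overlap by their shared AAG, and matches were counted for each motif alone. A match says only that these letters are there.

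Complex I, the NADH dehydrogenase, had the most members. Its nuclear subunits fall into the conserved core, which carries the flavin and the iron-sulphur clusters, and the accessory subunits around it. Of 28 accessory subunits tested 17 were lower (60.7%), and of 7 core subunits 1 was, NDUFS8 (14.3%), beside 16.2% of all genes tested. With 7 core subunits nothing is read from their share. No nuclear subunit was higher, and a difference between core and accessory subunits was not tested. The largest falls among the nuclear subunits were in small accessory proteins. NDUFA1, in the membrane arm, was at 8.0 to 8.83 log2 CPM in KO (median 8.52) and 8.57 to 9.11 in control (median 8.89), and 16 KO libraries lay below the lowest control. Its log2 fold change was -0.38 (adjusted p = 0.000109). NDUFB7 was at 7.48 to 8.48 (median 7.97) in KO and 8.05 to 8.62 (median 8.27) in control, a log2 fold change of -0.38, and did not pass among the AT-rich libraries (-0.31, adjusted p = 0.0584). NDUFC1 and NDUFB2 lay below the lowest control in 20 KO libraries each, with log2 fold changes of -0.37 (adjusted p = 3.98e-05) and -0.33 (adjusted p = 1.78e-06). The groups of NDUFB2 overlapped, at 9.62 to 10.27 in KO and 10.09 to 10.55 in control.

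NDUFC2-KCTD14, a readthrough gene that overlaps NDUFC2, was lower by 0.34 on the log2 scale with 21 KO libraries below the lowest control. NDUFC2 itself is not analysed here. NDUFS5 (-0.35), NDUFA3 (-0.33), NDUFS4 (-0.31) and NDUFB4 (-0.31) were lower too, NDUFS4 being a subunit whose mutation causes Leigh syndrome. NDUFS8, a core subunit that carries iron-sulphur clusters, was lower by 0.19 on the log2 scale (adjusted p = 0.00075), with 17 KO libraries below the lowest control. The other core subunits had negative values that did not pass, from -0.088 for NDUFS1 to -0.20 for NDUFS7. NDUFS7 was the least abundant member tested, with 1020 UMIs in all. NDUFV3 had the single positive value, at 0.085, and did not pass. NDUFA4, first assigned to complex I and now known to sit in complex IV, is counted under complex I by its symbol. It was at 9.67 ± 0.17 in KO and 9.75 ± 0.12 in control and did not pass (log2 fold change -0.07).

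Complex II, succinate dehydrogenase, is also an enzyme of the tricarboxylic acid cycle and has no mitochondrially encoded subunit. Its catalytic subunits were lower and its membrane anchors did not pass. SDHB, the iron-sulphur subunit (chr1:17018664-17054032, minus strand, GRCh38 with GENCODE 44, as for the other positions), was at 7.65 to 8.22 log2 CPM in KO (median 7.98) and 8.21 to 8.52 in control (median 8.36). All KO libraries but KO 18 lay below the lowest control, and KO 18, at 8.22, was level with the lowest control at 8.21. The log2 fold change was -0.42 (SE 0.048, adjusted p = 6.77e-09), or 0.749-fold. SDHA, the flavin subunit, had a median of 7.01 in KO and 7.18 in control and was lower by 0.20 on the log2 scale (adjusted p = 0.00958). It did not pass among the AT-rich libraries (-0.15, adjusted p = 0.154) or after thinning to the smallest total. SDHC and SDHD, which anchor the complex in the membrane, had log2 fold changes of 0.08 (adjusted p = 0.322) and -0.15 (adjusted p = 0.061). The difference between subunits was not tested.

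Complex III, the cytochrome bc1 complex, had 5 of 8 nuclear subunits lower (62.5%) and none higher, beside 16.2% and 17.7% of all genes tested. With 8 subunits nothing is read from that share. UQCRQ (chr5:132866630-132868847, plus strand), a small subunit that contacts cytochrome b, was the one member whose groups did not overlap. It was at 9.75 to 10.35 log2 CPM in KO (median 10.17) and 10.41 to 10.72 in control (median 10.58), so that KO 18, the highest KO library, lay just below control 4, the lowest control. The log2 fold change was -0.40 (SE 0.046, adjusted p = 4.96e-09), or 0.755-fold. UQCRFS1, the Rieske iron-sulphur protein, was lower by 0.25 and UQCRC1, a core protein, by 0.21 on the log2 scale, with 16 and 18 KO libraries below the lowest control. UQCRC1 did not pass among the AT-rich libraries (-0.12, adjusted p = 0.141). UQCRB, a small subunit, was lower by 0.28 on the log2 scale. UQCRH, the hinge protein, was lower by 0.15. Its retrocopy UQCRHL (-0.13, adjusted p = 0.207) is nearly identical in sequence, so reads may be split between the genes. UQCRC2 and UQCR10 did not pass.

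Complex IV, cytochrome c oxidase, had 8 of 11 nuclear subunits lower (72.7%), and none higher. Of all genes tested 16.2% passed as lower, and 24.8% of those averaging 100 CPM or more. The difference in share was not tested. COX7C varied least among the KO libraries, at 8.30 to 8.69 log2 CPM (SD 0.083), against 8.62 to 9.02 in control, and 19 KO libraries lay below the lowest control. Its log2 fold change was -0.28 (SE 0.038, adjusted p = 1.52e-07). The falls of the others were between -0.24 for COX6C and COX6B1 and -0.10 for COX5A, with COX4I1, the main regulatory isoform, at -0.18. Among the AT-rich libraries alone COX4I1, COX6B1, COX6C and COX7A2 did not pass, with log2 fold changes of -0.082, -0.16, -0.28 and -0.074. COX4I1 also lost its call with library size alone, with no filter on low counts, without the 5 KO libraries low around NDUFS1 or both sets of KO libraries (described below), and when control 1, 3, 8, 9 or 11 was left out. COX6C lost it with library size alone, with no filter, after thinning to the smallest total, without both sets, and when control 1, 2, 6, 8, 9 or 11 was left out. COX6A1 and COX8A did not pass, nor did COX7A2L, a factor of supercomplex assembly, at 8.52 ± 0.12 in KO and 8.44 ± 0.12 in control (log2 fold change 0.08, adjusted p = 0.150).

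ATP synthase held the largest falls of any nuclear member. ATP5IF1, the inhibitory factor that blocks ATP hydrolysis by the enzyme (chr1:28236109-28246906, plus strand), was at 9.38 to 10.08 log2 CPM in KO (median 9.64) and 10.05 to 10.48 in control (median 10.27). All KO libraries but KO 1 lay below the lowest control. The log2 fold change was -0.63 (SE 0.065, adjusted p = 5.92e-10), or 0.644-fold. ATP5ME, a small membrane subunit that takes part in dimer formation (chr4:672436-674330, minus strand), was at 7.05 to 8.16 (median 7.69) in KO and 7.99 to 8.58 (median 8.34) in control, with 24 KO libraries below the lowest control. Its log2 fold change was -0.65 (SE 0.081, adjusted p = 5.53e-08), or 0.639-fold. Both kept their call in all 51 alternatives, leave-one-out fits included, with ATP5IF1 between -0.68 and -0.53.

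The 5 subunits of the F1 head all had negative values, and 3 passed, beside 16.2% of all genes that passed as lower. With so few subunits nothing is read from that share. ATP5F1D, the delta subunit of the central stalk, was lower by 0.43 on the log2 scale (SE 0.056, adjusted p = 8.68e-08), with 22 KO libraries below the lowest control. The catalytic subunit ATP5F1B was lower by 0.12 and the gamma subunit ATP5F1C by 0.14, while ATP5F1A and ATP5F1E did not pass. The 3 genes ATP5MC1, ATP5MC2 and ATP5MC3 encode the same mature c subunit, the ring that turns with the proton flow. ATP5MC3 was lower by 0.13 (adjusted p = 0.0352), a call lost in 18 of the 51 alternatives. ATP5MC1 was at -0.13 and did not pass (adjusted p = 0.116), and ATP5MC2 was at 7.77 ± 0.13 in KO and 7.77 ± 0.23 in control. None of the 3 peripheral stalk subunits passed, ATP5PD being at 0.071, ATP5PB at -0.075 and ATP5PF at -0.086. The membrane subunits ATP5MK and ATP5MJ were lower by 0.29 and 0.20.

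ATP5ME overlaps MYL5 and UQCRQ overlaps GDF9 on the opposite strand, and whether counting used the strand is not stated in the sources used here. COX6C has 17 annotated pseudogenes.

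**Figure D3:**
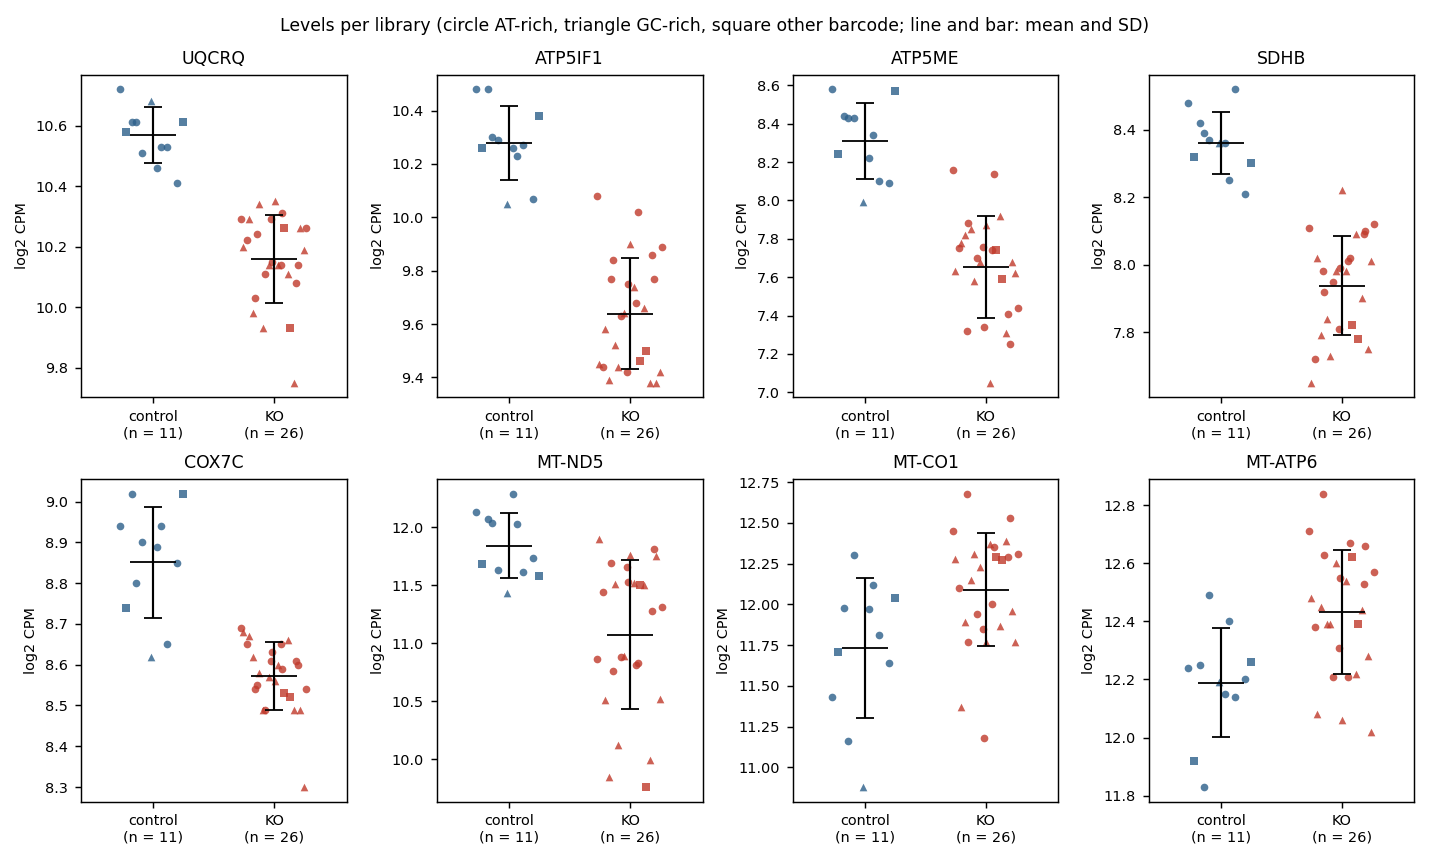
Log2 CPM per library (vertical axis) of 5 nuclear and 3 mitochondrially encoded members in 11 control and 26 KO libraries, with the mean and SD and with point shapes for the barcode class. The KO values of UQCRQ all lie below 10.41, the lowest control, those of MT-ND5 spread from 9.76 to 11.90, and those of MT-CO1 and MT-ATP6 overlap the controls.

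Of the mitochondrially encoded members tested, 7 had a negative log2 fold change and 4 a positive one. Their sum was 30173 ± 4863 CPM in KO and 30957 ± 4272 in control, and 2 KO libraries lay below the lowest control and 2 above the highest. Of 11 tested, 4 were lower (MT-ND5, MT-ND3, MT-CYB and MT-ND6), 2 were higher (MT-CO1 and MT-ATP6) and 5 did not pass. The lower share was 36.4%, beside 16.2% of all genes tested. The higher share, 18.2%, was near the 17.7% of all genes, and with so few members nothing is read from either share. The ratio of the mitochondrially encoded sum to the nuclear sum was 0.881 ± 0.113 in KO and 0.795 ± 0.113 in control. Of the KO libraries 5 lay above the highest control and 1 below the lowest.

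Mitochondrial genes are read from long shared transcripts that are then cut apart, so gene order is given. In that order the values were negative for MT-ND1 (-0.017) and MT-ND2 (-0.25), positive for MT-CO1 (0.34), MT-CO2 (0.13), MT-ATP8 (0.015) and MT-ATP6 (0.25), and negative for MT-ND3 (-0.47), MT-ND4L (-0.20), MT-ND5 (-0.66), MT-ND6 (-0.27) and MT-CYB (-0.31). MT-ND6 is on the other strand. MT-ATP8 and MT-ATP6 overlap by 46 bases and MT-ND4L and MT-ND4 by 7, so the values of these genes are not those of wholly separate RNAs.

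MT-ND5, a proton-pumping core subunit of complex I (chromosome M, positions 12337 to 14148), was at 9.76 to 11.90 log2 CPM in KO (median 11.30) and 11.43 to 12.29 in control (median 11.73). Of the KO libraries 14 lay below the lowest control and none above the highest, and the SD was 0.64 in KO and 0.28 in control. The lowest were KO 20 at 9.76, KO 11 at 9.85, KO 12 at 9.99 and KO 8 at 10.12, and the next KO value was 10.51. In the same order, these libraries had median deviations of the nuclear members from the control mean of -0.28, -0.27, -0.36 and -0.43. No fit left out these 4 libraries as a set. The log2 fold change was -0.66 (SE 0.19, adjusted p = 0.00569). MT-ND3 was at 7.78 to 9.23 in KO and 8.46 to 9.41 in control, with 12 KO libraries below the lowest control and a log2 fold change of -0.47 (SE 0.12, adjusted p = 0.003).

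MT-CO1, the catalytic subunit of complex IV, was at 11.18 to 12.68 in KO (median 12.19) and 10.88 to 12.30 in control (median 11.81), and 8 KO libraries exceeded the highest control. Its rise was 0.34 on the log2 scale (SE 0.13, adjusted p = 0.038). It did not pass among the AT-rich libraries (0.33, adjusted p = 0.18), with no filter on low counts, after thinning or without the 6 KO libraries low around COX6C, nor when control 1, 3, 4, 5 or 6 or KO 4 or 24 was left out. MT-ATP6, the proton channel of ATP synthase, was at 12.02 to 12.84 in KO and 11.83 to 12.49 in control, with 11 KO libraries above the highest control and a log2 fold change of 0.25 (adjusted p = 0.00665). MT-CYB (adjusted p = 0.0186) and MT-ND6 (adjusted p = 0.0487) passed over all libraries but not among the AT-rich ones, where their log2 fold changes were -0.22 and -0.23. MT-CYB also lost its call without the 5 KO libraries low around NDUFS1. MT-ND6 passed in 18 of the 51 alternatives. Of the ribosomal RNAs of the mitochondrion, MT-RNR1 was lower by 0.38 on the log2 scale (adjusted p = 0.046) and MT-RNR2 did not pass (0.053, adjusted p = 0.584).

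The members varied by a biological coefficient of variation of 0.107 (median over the nuclear ones) and 0.204 (median over the mitochondrially encoded ones), beside 0.0986 over all tested genes that average 100 CPM or more. The 26 KO values of each of the 85 tested members were searched for their widest gap, with at least 3 libraries on each side. For 5 members it was at least 1.3 times the SD within the sides: COX6C, COX8A, NDUFB6, NDUFS1 and ATP5F1A. For ATP5F1A that gap was 0.11 log2 CPM. Other genes were not searched, so no share over all genes stands beside this count. COX6C was at 8.29 to 8.49 in KO 4, 5, 10, 22, 24 and 25 and at 8.69 to 9.28 in the other 20 KO libraries. The same 6 libraries were the lowest for UQCRB, where the gap was narrow, at 8.07 to 8.24 against 8.31 to 8.86, and the highest for COX8A, at 8.89 to 8.96 against 8.30 to 8.70. NDUFB6 was at 7.42 to 7.57 in KO 7, 9, 19, 21 and 23 and at 7.95 to 8.73 in the others. NDUFS1 was at 6.6 to 6.90 in the same 5 libraries and at 7.10 to 7.60 in the others. ATP5F1A was at 8.89 to 8.99 in KO 7, 8, 9, 11, 12, 19, 20, 21 and 23 and at 9.10 to 9.31 in the others.

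Genes near COX6C, NDUFS1 and NDUFB6 were low in the same libraries, genes near COX8A were slightly higher in them, and genes near ATP5F1A did not follow it. COX6C and UQCRB both lie on chromosome 8, and the 54 other tested genes within 10 Mb of COX6C (at least 10 CPM, members left out) had a median deviation from the control mean of -0.61 to -0.44 log2 CPM in those 6 libraries, -0.12 to 0.14 in the other KO libraries and -0.094 to 0.071 in the controls. Around NDUFS1, on chromosome 2, the median of 56 such genes was -0.50 to -0.43 in the 5 libraries and -0.17 to 0.11 in the other KO libraries. Around NDUFB6, on chromosome 9, the median of 55 genes was -0.38 to -0.23 in the 5 libraries and -0.082 to 0.094 in the others. Around COX8A, on chromosome 11, the median of 177 genes was 0.087 to 0.152 in the 6 libraries and -0.11 to 0.057 in the others. In the controls that median was -0.056 to 0.075, so the lowest of the 6 lay close to the control range. Around ATP5F1A the median of 31 genes was -0.048 to 0.174 in its 9 low libraries and -0.054 to 0.185 in the others. Over all tested genes of at least 10 CPM outside the members the median stayed between -0.011 and 0.019 in every library. Scaling of the libraries keeps that median near 0, so it does not show how often other regions deviate, which was not examined. In the set of 5, KO 21 and 23 carried AT-rich barcodes and KO 7, 9 and 19 GC-rich ones. In the set of 6, KO 4, 5, 22, 24 and 25 carried AT-rich barcodes and only KO 10 a GC-rich one. The fit on AT-rich barcodes alone therefore kept many libraries of these sets.

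With the 6 libraries left out COX6C was at -0.13 (adjusted p = 0.099 by edgeR) and no longer passed, and UQCRB was at -0.20 (adjusted p = 0.0018). COX8A, which had not passed over all libraries, was then lower, at -0.13 (adjusted p = 0.0151). In that fit 47 members were lower, beside 14.42% of all genes. With the 5 libraries left out NDUFB3, which also lies on chromosome 2, was at -0.16 (adjusted p = 0.0738) and no longer passed. In that fit 35 members were lower, beside 15.41% of all genes. With both sets left out 32 members were lower, 28 of them nuclear, beside 12.95% of all genes, and SDHB, UQCRQ, ATP5IF1 and ATP5ME were among them. Libraries that share such levels may share a clone, which the labels do not give, and were treated as separate samples.

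**Figure D4:**
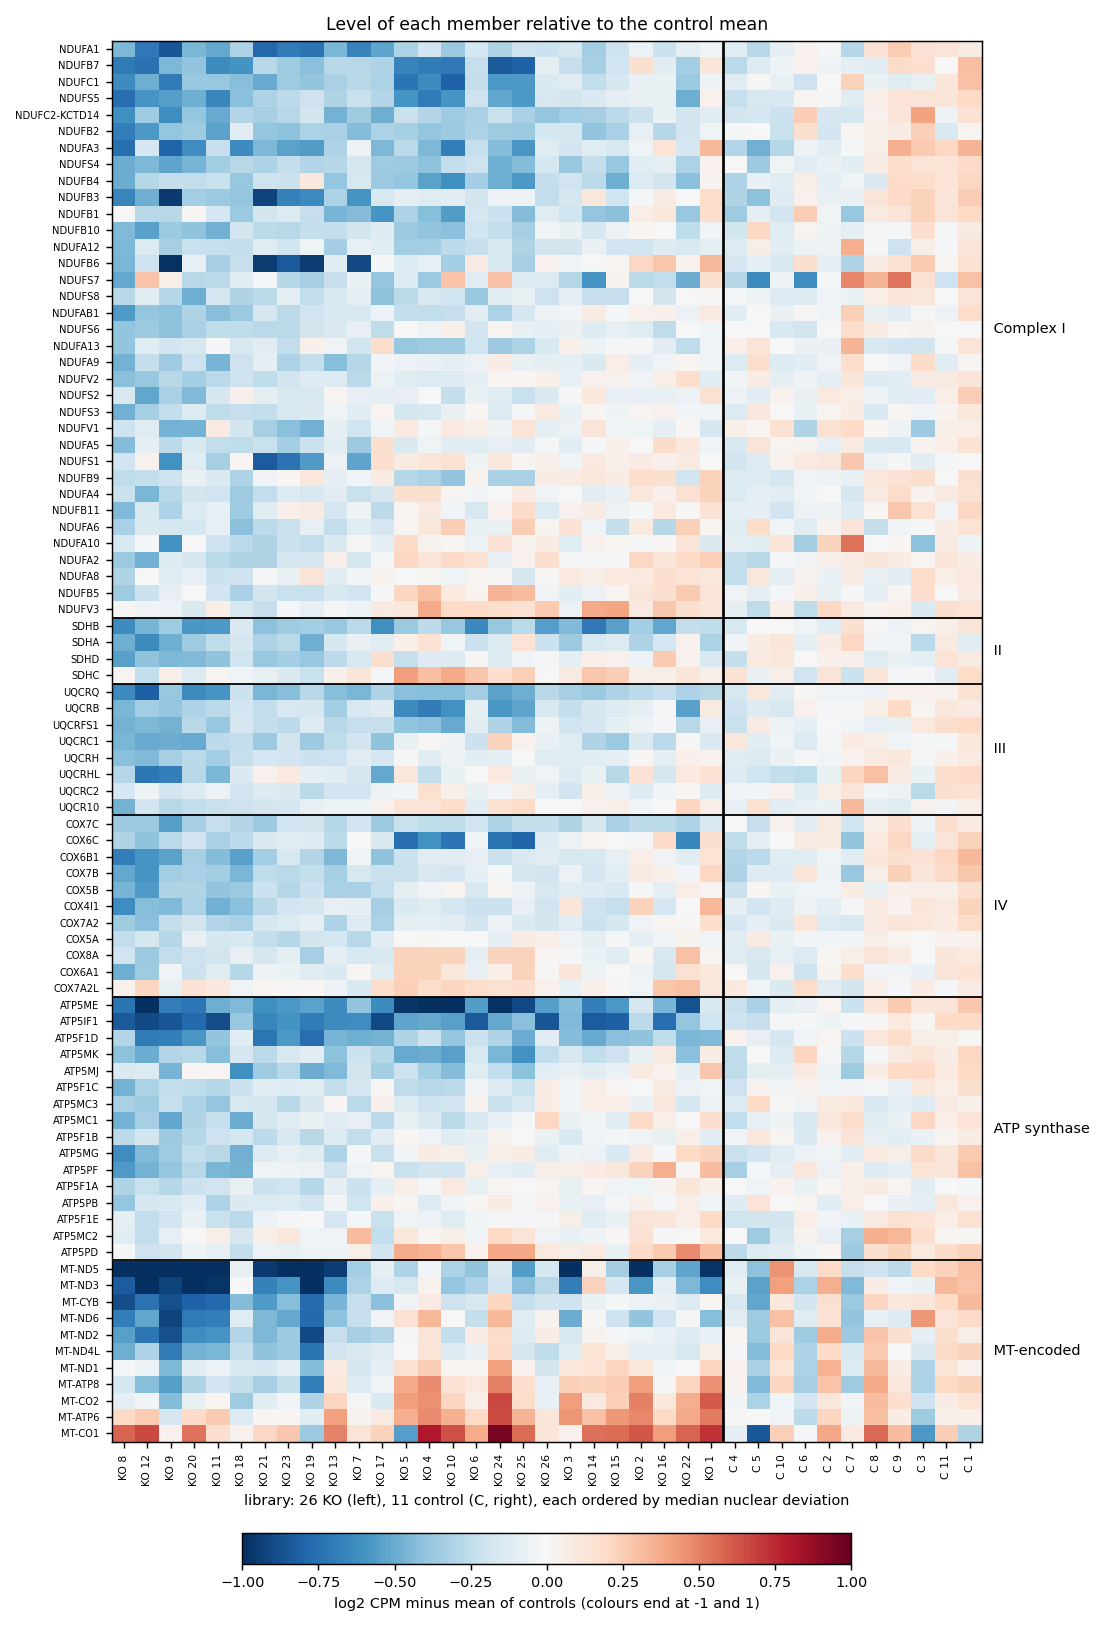
Log2 CPM of each of the 85 tested members (rows, by complex) minus its mean over the controls, in 26 KO and 11 control libraries (columns, ordered within each group by the median over the nuclear members), with blue lower and red higher. The KO medians run from -0.43 in KO 8 to 0.035 in KO 1, while COX6C, UQCRB, NDUFB6 and NDUFS1 are low in sets of KO libraries.

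Library by library, the median over the nuclear members lay 0.43 below to 0.035 above the control mean in KO and between -0.14 and 0.14 in control. KO 18, with a median of -0.24, was the highest KO library for UQCRQ, SDHB and ATP5F1D, and its MT-ND5 level of 11.76 was within the control range. Without KO 18 the same 45 members were lower.

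Genes that serve the same pathway were read from the same fit, in which 16.2% of all genes passed as lower and 17.7% as higher. Of 51 assembly factors, which build the complexes but are not part of them, 23 were lower and 1 was higher, with a median log2 fold change of -0.12. The lower share of this list was above that of all genes, and the difference was not tested. NDUFAF3, needed early in complex I assembly, was lower by 0.42, SDHAF3 by 0.34 and the complex III chaperone BCS1L by 0.30, while ATPAF1, a chaperone of the F1 head, was higher by 0.29. Of 16 electron carriers and coenzyme Q synthesis genes 6 were lower and 1 was higher, with a median of -0.071. CYC1, the cytochrome c1 subunit of complex III that the symbol rule left out, was lower by 0.36 (adjusted p = 5.34e-06), and CYCS, cytochrome c, by 0.24.

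Of 14 genes of the tricarboxylic acid cycle 3 were lower, SUCLG2 and FH among them, and none was higher, with a median log2 fold change of -0.028, a lower share near that of all genes. SUCLG2, a subunit of succinyl-CoA ligase, was lower by 0.21 and FH, fumarase, by 0.15 on the log2 scale. Of 17 regulators of mitochondrial biogenesis 5 were lower and none was higher, with a median of -0.11, and with so few genes nothing is read from that share. TFB1M, which methylates the mitochondrial 12S rRNA, was lower by 0.67 (adjusted p = 2.92e-09) and GABPB2, a GABP subunit, by 0.63, at 3 to 39 UMIs a library. TFAM, which packages mitochondrial DNA, was lower by 0.18 and POLRMT, the mitochondrial RNA polymerase, by 0.22.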

How the data were processed

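RNA of 26 KO and 11 control K562 libraries was sequenced by SCRB-seq. Per the study's methods the authors used zUMIs and, per the labels, STAR 2.6.0a on hg38, and deposited a table of raw UMI counts per gene and library. Here Ensembl IDs were matched to GENCODE 44 (31323 of 32055). Genes with low counts were filtered with filterByExpr, which left 10661, and TMM factors and the quasi-likelihood test of edgeR 4.0.16 were applied to all 37 libraries. A gene passed at an adjusted p (Benjamini-Hochberg) below 0.05. Levels are log2 CPM with a prior count of 2 and are not length-scaled, since 3' counts do not grow with transcript length.

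The members, lists and tests were chosen with earlier results of these data known. The rule for named genes took ZBTB7A, the most and least abundant member of each complex, up to 2 largest rises and 2 largest falls per complex and per related list among genes that passed, the isoform groups with ATP5IF1, the mitochondrially encoded members and members without overlap. The other genes named, the neighbouring genes and the roles were chosen after their values were seen. The alternatives were RLE size factors, library size alone, mitochondrial counts left out of scaling, limma-voom 3.58.1, DESeq2 1.42.0, other filters, thinning and leaving out libraries. The fits were tested on simulated data. Counts limit the precision of the scarcest genes, and p-values cover the spread between libraries only. A gene of a related list that passed is not reported here.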

Additional observations from a re-analysis of the deposited data

How the results depend on the processing

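The count of 45 lower members was 21 (19 nuclear) among AT-rich barcodes alone and 32 to 48 under the other alternatives. The share of all genes that passed as lower was 12.1% among AT-rich barcodes. Under the others it ran from 5.38% with no filter on low counts to 18.56% by limma-voom. Leaving out 1 library at a time gave 35 (without control 1) to 50 (without KO 14), with 1 to 2 members higher. In these fits 1491 (without control 1) to 1804 (without KO 18) of all genes were lower. Leaving out sets of libraries was chosen after seeing the data. AT-rich barcodes alone leave fewer samples, and how much of the drop this accounts for was not tested. Members higher numbered 1 without a filter on low counts, after thinning to the smallest total, with AT-rich barcodes and without the 6 libraries low around COX6C. Of nuclear members, 1 was higher (COX7A2L) with library size alone and without the 5 libraries low around NDUFS1. After thinning, 741 genes of all were lower and 855 higher. With no minimum fold change (above 0) 45 members passed as lower, and with a log2 minimum of 1 there were 0.

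Among the 32 members named by rule, signs turned for members that had not passed, and the cause was not tested. Outside them, NDUFS1 went from -0.088 to 0.030 without the 5 libraries. MT-ND1 was at 0.015 with library size alone and 0.045 without the 5 libraries, and -0.043 to 0.023 leaving out 1 library. Among AT-rich barcodes NDUFA4 was at 0.044, COX6A1 at 0.024, COX8A at 0.047 and ATP5MC2 at 0.038. The COX8A log2 fold change was 0.00098 without the 5 libraries. The MT-ATP8 log2 fold change was -0.0027 by limma-voom, -0.017 without the shallowest library, -0.078 without the 6 libraries and -0.021 to 0.058 leaving out 1 library. The ATP5MC2 log2 fold change was 0.020 with library size alone and -0.041 to 0.028 leaving out 1 library. UQCRQ, SDHB, COX7C, ATP5F1D, ATP5IF1, ATP5ME, MT-ND3, MT-ND5 and MT-ATP6 passed in all 51 alternatives.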
